A study of Mus musculus with 9 samples.

Results

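The 32 genes described here encode the regulators and enzymes that make cholesterol and fatty acids. They were chosen by name from what is known of both pathways, but with earlier results of these data known. All 32 were among the 22609 genes listed for tumors of 4T1 cells, and 31 were among the 13366 genes with enough counts to be tested. 4T1 is a mouse mammary carcinoma line, labelled as triple-negative breast cancer (TNBC). The cells were grown as orthotopic mammary tumors in BALB/c mice, and tumor RNA was sequenced in 3 groups of 3 libraries each. Mice of the low-fat diet (LFD) group were fed 10 kcal% fat and given the vehicle (0.3% hydroxy propyl cellulose). Mice of the high-fat diet (HFD) group were fed 60 kcal% fat and given the same vehicle. Mice of the HFD + EC359 group were fed the 60 kcal% diet and given EC359, an inhibitor of the leukemia inhibitory factor receptor (LIFR), at 5 mg/kg on 5 days a week. Each diet began 6 weeks before the cells were injected and EC359 was given from the time tumors had formed. EC359 was thus compared on the HFD alone. All tumors came from 1 cell line, and each library held RNA of host cells together with that of tumor cells. The description of the series counts as many tumors as libraries, and the libraries were taken as separate tumors on that ground. The labels do not say which mouse gave which library, so p-values measure the spread between these libraries. Whether that spread is as large as the spread between mice is not known. In most pairs of libraries it was little above counting error, as given below, so small p-values need not hold across mice. In whole tumors, fewer cells of a type and less RNA per cell cannot be told apart.

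Cells build cholesterol from acetyl-CoA through the mevalonate pathway, squalene and lanosterol, and build fatty acids from acetyl-CoA through malonyl-CoA, after which chains are elongated and desaturated. Both pathways are switched on by the sterol regulatory element-binding proteins (SREBPs), which are held in the endoplasmic reticulum with SCAP and INSIG when sterols are plentiful and are cut free to enter the nucleus when sterols fall. SREBP-1 acts mainly on fatty acid genes and SREBP-2 mainly on cholesterol genes. Polyunsaturated fatty acids from the diet are known to lower SREBP-1 activity and the stearoyl-CoA desaturase Scd1 in liver, and tumor cells often make fatty acids even when fat is supplied by the blood.

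Library totals ran from 5085357 to 6509130 counts for LFD, from 7314704 to 7922852 for HFD and from 8043649 to 9751201 for HFD + EC359. Libraries are named by group and replicate number, as in HFD 1. Levels are given as CPM (counts scaled to a common library total), or as RPKM (CPM divided by gene length in kilobases) where one gene is compared with another. A count of 0 in a library leaves room for up to 3 counts (0.308 to 0.59 CPM), a limit that covers counting error only. The 31 tested genes varied little within a group, with a median coefficient of variation of 5.06% for LFD, 4.37% for HFD and 3.64% for HFD + EC359. Over genes of the whole series, the mean chi-square between 2 libraries of a group would be 1 with counting error alone. It was 2.99 and 2.46 for LFD 1 against LFD 2 and LFD 3, and 1.35 to 1.55 in every other pair. Why most pairs lay so near counting error was not tested. The groups also differed in how counts varied with base composition. Genes of low GC content minus genes of high GC content gave a log2 difference of -0.54, -0.32 and -0.36 in the LFD libraries, 0.10 to 0.16 in the HFD libraries and 0.25 to 0.30 in the HFD + EC359 libraries. Each result below was therefore also computed with each library's trend with GC content and gene length removed, and that value is given wherever it ended or added a call.

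In tumors of the HFD group, 6 of the 31 genes rose and 15 fell relative to the LFD group, taking an adjusted p below 0.05 as the threshold (quasi-likelihood test of edgeR, p-values adjusted by Benjamini-Hochberg over every gene tested). Of all genes tested, 26% were higher and 25.8% were lower by the same rule, so the share of higher members (19.4%) lay below the background and the share of lower members (48.4%) above it. The LFD and HFD libraries did not overlap in 24 of the 31 genes (8 higher and 16 lower), beside 28.6% of all genes higher and 28.6% lower. The median log2 fold change of the 31 genes was -0.10, beside 0.0071 over all genes. Only Scd1 passed a stricter rule, with at least a 2-fold difference and an adjusted p below 0.01, as did 2.68% of all genes in the lower and 3.03% in the higher direction. Among 15 genes of cholesterol synthesis and transport, 2 were higher, 9 were lower and 4 did not pass, and among 13 fatty acid genes 4 were higher, 4 were lower and 5 did not pass. The summed level of the 15 cholesterol genes was 601 ± 4.44 CPM with LFD and 523 ± 12.2 CPM with HFD (mean ± SD, n = 3), and that of the 13 fatty acid genes, most of it Fasn and Scd2, was 2883 ± 25.2 and 2631 ± 34.3 CPM.

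In tumors of the HFD + EC359 group, 7 of the 31 genes were higher and 2 were lower than in the HFD group (edgeR adjusted p under 0.05), beside 12.7% higher and 13.9% lower over all genes tested. With library totals in place of TMM factors, higher genes made up 58.4% of the calls over all genes instead of 47.8%, and among these genes 7 were higher and 1 was lower. The 7 were Hsd17b7, Scd1, Elovl6, Lpin1, Sc5d, Dhcr7 and Elovl5, and the 2 were Fads2 and Fasn. None passed the stricter rule in edgeR or in DESeq2, beside 2.06% higher and 1.38% lower over all genes in edgeR, while 10 had an unadjusted p under 0.05 in edgeR and 6 an adjusted p under 0.05 in DESeq2. The HFD and HFD + EC359 libraries did not overlap in 14 of the 31 genes (12 higher and 2 lower), beside 20.5% of all genes higher and 20.8% lower, and the median log2 fold change was 0.098, beside 0.0056. Without HFD + EC359 replicate 1, 5 genes passed in place of 9, all of them higher. With the GC and length trend removed, 6 passed, 5 higher and 1 lower. The summed level of the 15 cholesterol genes was 556 ± 13.1 CPM and that of the 13 fatty acid genes 2606 ± 32.01 CPM with EC359. The comparison shares its HFD libraries with that of the diets, so the changes of a gene in the 2 comparisons are not independent and are given side by side below. Compared with the LFD group, 11 genes were higher and 11 were lower with EC359, beside 29.2% and 29.1% over all genes, with a median log2 fold change of 0.026 beside 0.011.

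**Figure D1:**
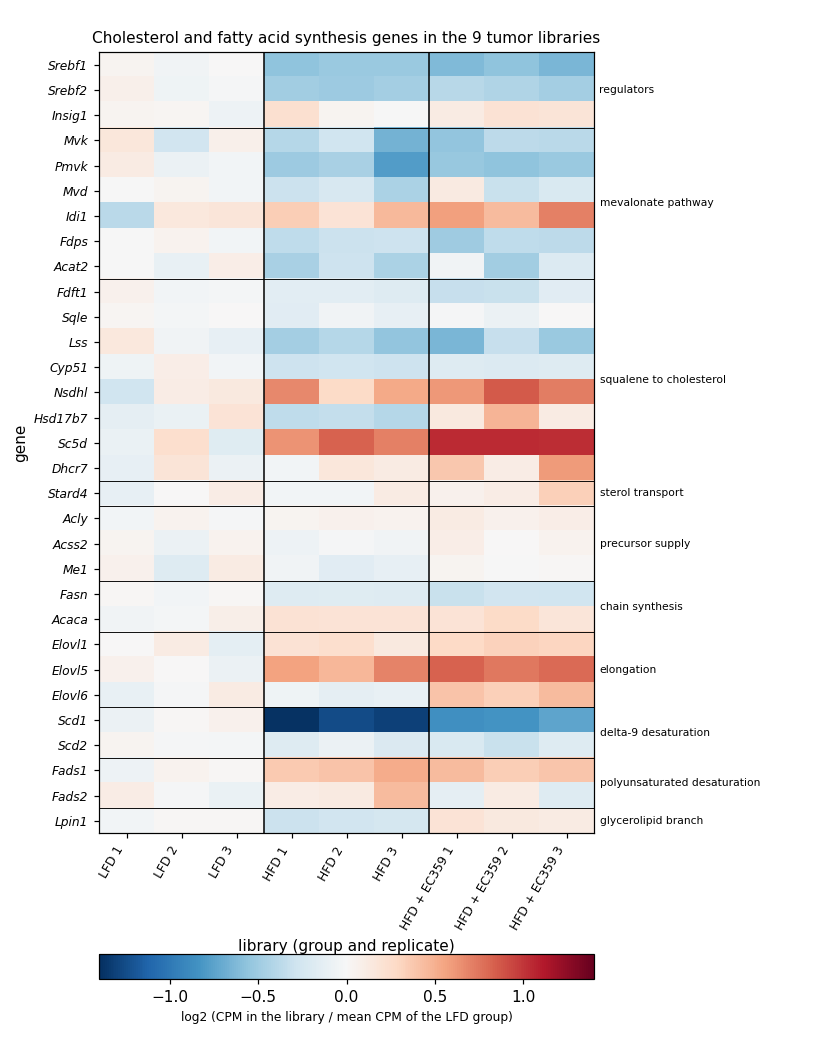
Heatmap of the 31 tested genes (rows, grouped by role) in the 9 libraries (columns); color is the log2 ratio of the CPM in a library to the mean CPM of the LFD group, from blue (lower) to red (higher). Scd1 is the darkest blue row in the HFD libraries and paler with EC359, Srebf1 and Srebf2 are blue in all 6 HFD and HFD + EC359 libraries, and Sc5d is the darkest red row with EC359.

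Both SREBP genes fell with HFD. Srebf1 (mm9 chromosome 11, 60012591 to 60034106, minus strand) was at 251, 237 and 245 CPM in the LFD libraries, 166, 170.5 and 170.2 in the HFD libraries and 159, 165 and 157 in the HFD + EC359 libraries. All 6 libraries of mice on the HFD lay below all 3 of the LFD group. Its log2 fold change with HFD was -0.53 (standard error 0.0425, edgeR adjusted p = 3.42e-12), and with EC359 against HFD it was -0.07 (95% interval -0.16 to 0.01, edgeR adjusted p = 0.217). Srebf2 (chromosome 15, 81977699 to 82035390, plus strand) was at 363, 332 and 339.6 CPM in the LFD libraries, 246, 242 and 249 in the HFD libraries and 263, 258 and 249 with EC359. It showed the same separation of the LFD libraries from the other 6. The log2 fold change of Srebf2 was -0.49 with HFD (standard error 0.0406, edgeR adjusted p = 9.81e-12) and 0.06 with EC359 against HFD (interval -0.02 to 0.14, edgeR adjusted p = 0.280), and the latter passed with the GC and length trend removed (0.13, edgeR adjusted p = 0.00535). Against the LFD group, the EC359 libraries were lower in both, with log2 fold changes of -0.61 for Srebf1 and -0.42 for Srebf2 (edgeR adjusted p = 6.6e-14 and 7.92e-11). With the trend removed, these calls held at smaller sizes, -0.32 and -0.28 with HFD and -0.32 and -0.15 for EC359 against LFD. Counts per gene cannot show how much of either protein was cut and entered the nucleus, nor which transcript of Srebf1 was made.

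Insig1, which holds SREBPs back and is itself one of their best known targets, did not pass with HFD or with EC359 against HFD. It was at 88.5, 88.1 and 82.0 CPM in the LFD libraries, 101, 88.6 and 85.6 in the HFD libraries and 93.0, 99.3 and 97.5 with EC359, and the HFD libraries overlapped both other groups. Its log2 fold change was 0.09 with HFD (interval -0.03 to 0.21, edgeR adjusted p = 0.210) and 0.07 with EC359 against HFD (interval -0.04 to 0.18, edgeR adjusted p = 0.364). Against LFD it was higher with EC359 by 0.17 (edgeR adjusted p = 0.0172), a call that was lost with the trend removed (0.04), with DESeq2 and counts thinned to the smallest library (0.14 to 0.16), and without any one of LFD 3, HFD + EC359 2 or HFD + EC359 3 (0.13 to 0.15).

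Promoter letters that SREBPs bind (the sterol regulatory element and the E-box), or that factors known to act beside them bind (the CCAAT box by NF-Y, the GC box by Sp family factors), were read from RefSeq sequences (GRCm38.p6, 250 bases before any start listed for a gene), which held 25 of the 32 genes. Promoters of Fdps, Fdft1, Sqle, Stard4, Scd1, Scd2 and Fads1 were not among them and were not read. The core of the sterol regulatory element, TCACNCCAC on either strand, was found in 1 of the 25 promoters (4%) and in 1.22% of all genes in the table. Variants of this core and sites farther from the start were not searched. The E-box CACGTG, which is its own reverse complement and which SREBP-1 and many other factors can bind, was found in 5 promoters (20%), beside 6.86% of all genes in the table and 9.90% of those tested. The CCAAT box was found in 19 (76%, beside 37.5% and 40.2%), and the GC box GGGCGG, both on either strand, in 19 (76%, beside 35.4% and 63.5%). The stretches around the sterol regulatory element core and the 5 E-boxes are printed because they show which members hold the letters; capitals mark the motif, and each reads along the strand of its gene. A match is a description of letters, not of binding.
Hmgcs1 (chr13:119690194-119690242, plus strand): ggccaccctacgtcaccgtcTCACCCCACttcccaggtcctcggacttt
Insig1 (chr5:28071291-28071336, plus strand): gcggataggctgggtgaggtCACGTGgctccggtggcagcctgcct
Hsd17b7 (chr1:169969323-169969368, minus strand): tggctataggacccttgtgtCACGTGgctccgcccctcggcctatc
Sc5d (chr9:42264373-42264418, minus strand): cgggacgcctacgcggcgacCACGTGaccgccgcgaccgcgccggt
Dhcr7 (chr7:143823215-143823260, plus strand): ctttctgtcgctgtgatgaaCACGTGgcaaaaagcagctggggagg
Elovl5 (chr9:77917184-77917229, plus strand): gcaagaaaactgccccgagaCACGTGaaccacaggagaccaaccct
In the table are 6 genes that were higher with EC359 than with HFD. Of these, 4 (Hsd17b7, Sc5d, Dhcr7 and Elovl5) held an E-box, and of the other 18 tested genes it holds, 1 (Insig1) did. This grouping was noticed after the values were seen and was not tested, and the calls of Sc5d, Dhcr7 and Elovl5 with EC359 are among those lost with the trend removed.

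Of 6 tested genes of the mevalonate pathway, 5 fell and none rose with HFD, beside 25.8% of all genes lower, and 3 (Acat2, Pmvk and Fdps) fell with the trend removed. The median log2 fold change was -0.35, and none passed with EC359 against HFD. Its first enzymes are Acat2, the cytosolic thiolase that joins 2 acetyl-CoA molecules, and Hmgcs1, the HMG-CoA synthase. Acat2 fell from 27.4 ± 1.83 to 20.9 ± 1.32 CPM with HFD (log2 fold change -0.39, edgeR adjusted p = 0.00385) and was at 23.4 ± 3.45 CPM with EC359 (0.16 against HFD, interval -0.04 to 0.37). Hmgcs1 was listed at 0 in all 9 libraries. The files place it on an unplaced part of chromosome 13, and all 60 genes placed on such parts were listed at 0, so its level is not known and it was not tested. The kinases Mvk and Pmvk, which phosphorylate mevalonate in turn, fell from 37.4 ± 5.52 to 27.7 ± 3.66 CPM and from 24.8 ± 1.73 to 16.6 ± 1.93 CPM. Their log2 fold changes were -0.42 and -0.57 (edgeR adjusted p = 0.00135 and 5.8e-05), and with EC359 they were at 27.8 ± 1.91 and 17.1 ± 0.261 CPM, 0.0054 and 0.04 from HFD on the log2 scale. The call of Mvk, one of the most GC-rich of these genes (59.6% GC), was lost with the trend removed (-0.15) while that of Pmvk held (-0.42).

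Mvd, the decarboxylase that yields isopentenyl diphosphate, fell from 20.9 ± 0.533 to 16.8 ± 1.29 CPM (-0.32, edgeR adjusted p = 0.0266) and was at 19.3 ± 3.11 CPM with EC359 (0.19 against HFD, interval -0.03 to 0.41). Its call was lost with the trend removed (-0.06), with library totals in place of TMM factors, DESeq2 and counts thinned to the smallest library (-0.24 to -0.32), and without any one of LFD 2, HFD 1 or HFD 3 (-0.26 to -0.33). Fdps, which makes farnesyl diphosphate, the last intermediate shared by sterols and protein prenylation, fell from 65.8 ± 2.02 to 53.0 ± 1.28 CPM (-0.32, edgeR adjusted p = 0.000242) and was at 49.9 ± 2.70 CPM with EC359 (-0.08 against HFD, interval -0.21 to 0.05). Fdps kept its call with the trend removed and with each library left out. The isomerase Idi1 was the only gene of this stretch with a higher mean in the HFD group. It was at 10.6 ± 2.13, 13.4 ± 1.20 and 15.9 ± 1.48 CPM in the 3 groups, with log2 fold changes of 0.31 with HFD (edgeR adjusted p = 0.0759) and 0.25 with EC359 against HFD (edgeR adjusted p = 0.143), and it was higher with EC359 than with LFD (0.56, edgeR adjusted p = 0.000893). Idi1 had the lowest GC content of the tested genes (41.5%) and 40 to 174 counts per library, and with the trend removed the difference from LFD was -0.0025 with HFD and 0.13 with EC359, neither past the threshold. The difference with HFD passed with library totals in place of TMM factors (0.36).

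Compared with the LFD group, 3 of the 6 were lower with EC359, Mvk (-0.42), Pmvk (-0.53) and Fdps (-0.40, edgeR adjusted p = 0.000992, 7.09e-05 and 5.78e-06). The call of Mvk was lost with the trend removed (-0.10). Acat2 (-0.23) and Mvd (-0.13) did not pass, although Acat2 did with the trend removed (-0.25) and without any one of LFD 2 or HFD + EC359 1 (-0.29 to -0.32).

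From squalene to cholesterol genes changed in both directions. With HFD, 4 of 8 fell (Lss, Hsd17b7, Cyp51 and Fdft1), 2 rose (Sc5d and Nsdhl) and 2 did not pass (Sqle and Dhcr7). The share lower was 50%, beside 25.8% of all genes, and the share higher was 25%, near the 26% of all genes. With EC359 against HFD 3 rose (Hsd17b7, Sc5d and Dhcr7) and none fell, beside 12.7% of all genes higher and 13.9% lower. Fdft1, the squalene synthase, was at 68.1 ± 2.67, 60.9 ± 0.846 and 56.7 ± 3.66 CPM in the 3 groups. Its decrease with HFD was small (-0.16, edgeR adjusted p = 0.0457) and was lost with library totals in place of TMM factors, DESeq2, no filter on low counts, a fit to just the 6 libraries compared, a replicate block and counts thinned to the smallest library (-0.12 to -0.17), and without any one of LFD 1, LFD 3, HFD 1, HFD 2, HFD 3, HFD + EC359 1 or HFD + EC359 2 (-0.13 to -0.17). Against LFD, it was lower with EC359 (-0.26, edgeR adjusted p = 0.00115), under every alternative tried. Sqle, the squalene epoxidase, was at 105, 101 and 104 CPM in the LFD libraries, 93.1, 100.4 and 95.7 in the HFD libraries and 103, 98.2 and 104 with EC359. These values lay close together, with log2 fold changes of -0.10 (interval -0.21 to -0.0011) and 0.08 (interval -0.02 to 0.17), and the first passed only with the trend removed (-0.14, edgeR adjusted p = 0.0302) and with counts thinned to the smallest library (-0.14).

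Lss, the cyclase that makes lanosterol, fell from 72.8 ± 7.19 to 52.5 ± 2.70 CPM (-0.47, edgeR adjusted p = 8.43e-06) and was at 51.9 ± 5.77 CPM with EC359 (-0.01 against HFD, interval -0.17 to 0.14). Cyp51, the lanosterol demethylase, was at 76.4, 85.0 and 77.8 CPM in the LFD libraries, 65.0, 65.6 and 65.2 in the HFD libraries and 70.4, 69.8 and 70.5 with EC359. The 3 groups did not overlap, and the HFD libraries were the lowest. The log2 fold change was -0.29 with HFD (edgeR adjusted p = 0.000124), 0.11 with EC359 against HFD (edgeR adjusted p = 0.180) and -0.19 with EC359 against LFD (edgeR adjusted p = 0.00647). With the trend removed, the first was -0.50 and the last -0.44. The last call was lost with library totals in place of TMM factors (-0.11), and without LFD 2 (-0.14). Nsdhl, a dehydrogenase in the removal of the sterol methyl groups, rose from 8.46 ± 1.31 to 11.98 ± 1.65 CPM with HFD (0.49, edgeR adjusted p = 0.0105) and was at 14.0 ± 1.25 CPM with EC359 (0.23 against HFD, interval -0.03 to 0.48). Its counts were 34 to 58 in the LFD libraries, and its call with HFD was lost with the trend removed (0.34) and without any one of LFD 1 or HFD 1 (0.38 to 0.39). Compared with the LFD group, EC359 libraries were lower in Lss (-0.48) and higher in Nsdhl (0.72, edgeR adjusted p = 2.63e-06 and 0.000136), and Sqle differed by -0.03 (interval -0.13 to 0.07).

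Hsd17b7, the reductase that completes the same demethylation, was lowest with HFD. It was at 17.0, 17.4 and 21.1 CPM in the LFD libraries, 14.5, 14.7 and 14.0 in the HFD libraries and 20.4, 25.8 and 20.1 with EC359. Every HFD library lay below every other library. Its change on the log2 scale was -0.36 with HFD (standard error 0.129, edgeR adjusted p = 0.0185) and 0.61 with EC359 against HFD (standard error 0.114, edgeR adjusted p = 9.7e-05), the largest increase among these genes in the latter comparison, and one that held under every alternative tried. The call with HFD was lost with counts thinned to the smallest library (-0.33), and without LFD 3 (-0.26), and was -0.63 with the trend removed (edgeR adjusted p = 0.000123). Against LFD the EC359 group differed by 0.25 (edgeR adjusted p = 0.0636), which passed with library totals in place of TMM factors (0.33) and without any one of LFD 3, HFD + EC359 1 or HFD + EC359 3 (0.30 to 0.36), and which was -0.08 with the trend removed.

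Sc5d, a sterol desaturase of a later step (chromosome 9, 42062260 to 42072383, minus strand), stepped up across the groups. It was at 12.7, 15.8 and 11.97 CPM in the LFD libraries, 20.9, 23.9 and 22.1 in the HFD libraries and 27.9, 27.8 and 27.6 with EC359, with no overlap between any of the groups. Its log2 fold change was 0.71 with HFD (standard error 0.119, edgeR adjusted p = 7.54e-06), 0.32 with EC359 against HFD (standard error 0.0952, edgeR adjusted p = 0.0123) and 1.03 with EC359 against LFD (standard error 0.113, edgeR adjusted p = 2.03e-09). The last was the only result of these genes past the stricter rule in that comparison, where 3.66% of all genes were higher and 1.43% lower by that rule. It stayed past an adjusted p under 0.05 under every alternative tried but fell under a fold of 2 with the trend removed (0.70) and without LFD replicate 1 or LFD replicate 3. The call against HFD was lost with the trend removed (0.22), with DESeq2 (0.31), and without HFD 1 (0.27). Sc5d had 43.6% GC, among the lowest of these genes. Dhcr7, the reductase that ends the pathway, was at 17.4, 21.3 and 17.8 CPM in the LFD libraries, 18.3, 20.9 and 20.4 in the HFD libraries and 24.5, 20.3 and 28.4 with EC359. The EC359 libraries overlapped both other groups. The log2 fold change was 0.07 with HFD (interval -0.18 to 0.32) and 0.30 with EC359 against HFD (edgeR adjusted p = 0.0410), which was lost with the trend removed (0.28), with DESeq2 (0.29), and without any one of HFD 1, HFD 2, HFD 3, HFD + EC359 1 or HFD + EC359 3 (0.17 to 0.34). Against LFD it was higher with EC359 (0.37, edgeR adjusted p = 0.00895), though not without HFD + EC359 3 (0.23). Stard4, a carrier that moves cholesterol between membranes, was at 30.7 ± 2.26, 31.0 ± 2.03 and 34.5 ± 3.61 CPM and passed in none of the 3 comparisons, with log2 fold changes of 0.01 with HFD (interval -0.18 to 0.20) and 0.16 with EC359 against HFD (interval -0.01 to 0.34). Its value for EC359 against LFD, 0.17, passed with library totals in place of TMM factors (0.25) and was -0.07 with the trend removed.

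**Figure D2:**
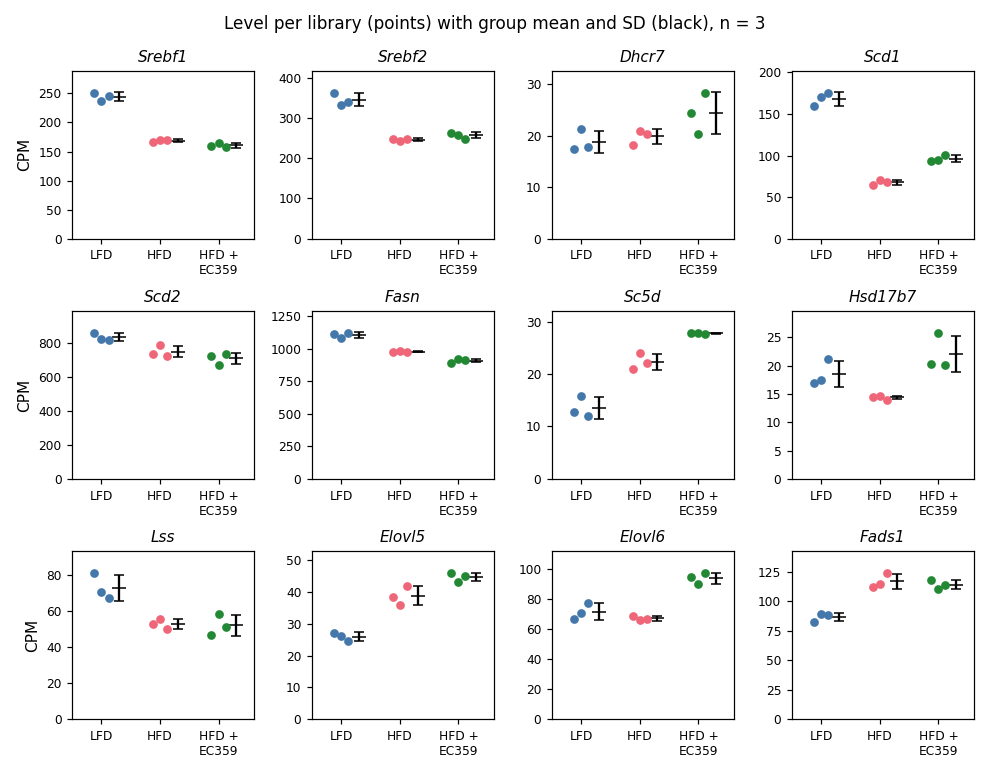
CPM of 12 of the genes in each library (points, colored by group) with the mean and SD of the 3 libraries of a group (black), each axis starting at 0. Srebf1, Srebf2 and Lss are lower in both HFD groups than in the LFD group, Scd1 and Hsd17b7 are lowest in the HFD group, Sc5d and Elovl5 step up from LFD to HFD to HFD + EC359, and Elovl6 is higher with EC359 alone.

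The enzymes that supply acetyl-CoA and reducing power did not pass the threshold with HFD or with EC359 against HFD in any of 3 cases. Acly, the citrate lyase, was at 264, 279 and 268 CPM in the LFD libraries, 277, 282 and 280.4 in the HFD libraries and 292, 282 and 288 with EC359. Its change on the log2 scale was 0.05 with HFD (interval -0.03 to 0.12) and 0.04 with EC359 against HFD (interval -0.03 to 0.11). Against LFD it was higher with EC359 by 0.09 (edgeR adjusted p = 0.0498; 0.16 with library totals), a call lost with RLE factors, DESeq2, a fit to just the 6 libraries compared, a replicate block and counts thinned to the smallest library (0.08 to 0.09), and without any one of LFD 1, LFD 3, HFD 1, HFD 2, HFD 3, HFD + EC359 1, HFD + EC359 2 or HFD + EC359 3 (0.07 to 0.10). Acss2, the acetyl-CoA synthetase, was at 39.9 ± 1.97, 38.6 ± 0.738 and 41.3 ± 1.32 CPM, and its intervals were -0.20 to 0.12 with HFD and -0.05 to 0.25 with EC359 against HFD. Me1, the malic enzyme, which yields NADPH, was at 34.6 ± 3.66, 32.04 ± 1.26 and 35.1 ± 0.565 CPM, with intervals of -0.28 to 0.08 and -0.04 to 0.30. With the replicate block and the trend removed together, Me1 was lower with HFD (-0.22, edgeR adjusted p = 0.0487).

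Fasn and Acaca, which build the chain, moved in opposite directions with HFD. Fasn (chromosome 11, 120667272 to 120685861, minus strand), the fatty acid synthase and the gene with the most counts of the 32, was at 1116, 1081 and 1124 CPM in the LFD libraries, 974, 981 and 977 in the HFD libraries and 895, 919 and 911 with EC359. The 3 groups did not overlap. Its log2 fold change was -0.18 with HFD (standard error 0.02995, edgeR adjusted p = 7.28e-06) and -0.11 with EC359 against HFD (standard error 0.0297, edgeR adjusted p = 0.00729). Both calls were lost with the trend removed (-0.007 and -0.03, at 58.1% GC), as was that of EC359 against LFD (-0.28, then -0.03), and the second also with library totals in place of TMM factors (-0.07), and without HFD + EC359 1 (-0.10). Acaca, the acetyl-CoA carboxylase, was at 116, 117 and 127 CPM in the LFD libraries, 138, 138 and 137 in the HFD libraries and 137, 145 and 135 with EC359. It rose with HFD by 0.19 (edgeR adjusted p = 0.00140), a call lost with the trend removed (0.10), and differed by 0.02 with EC359 against HFD (interval -0.07 to 0.11) and by 0.21 with EC359 against LFD (edgeR adjusted p = 0.000402), the last being 0.12 with the trend removed.

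The elongases differed from each other. Elovl5, which elongates polyunsaturated chains, was at 27.2, 26.2 and 24.6 CPM in the LFD libraries, 38.5, 36.0 and 42.1 in the HFD libraries and 46.0, 43.3 and 44.9 with EC359, with no overlap between groups. It rose by 0.58 with HFD (standard error 0.0918, edgeR adjusted p = 3.05e-06) under every alternative tried, with 0.39 the value with the trend removed. With EC359 against HFD it was higher by 0.20 (edgeR adjusted p = 0.0495), just past the threshold, and this call was lost with the trend removed (0.13), with RLE factors, DESeq2, no filter on low counts, a replicate block and counts thinned to the smallest library (0.18 to 0.21), and without any one of HFD 1, HFD 2, HFD + EC359 1, HFD + EC359 2 or HFD + EC359 3 (0.15 to 0.23). Elovl6, which extends palmitate to stearate, was at 66.6, 70.4 and 77.3 CPM in the LFD libraries, 68.5, 65.7 and 66.6 in the HFD libraries and 94.2, 89.8 and 97.1 with EC359. All 3 EC359 libraries lay above the other 6. The log2 fold change was 0.49 with EC359 against HFD (standard error 0.0565, edgeR adjusted p = 3.51e-08) under every alternative tried, and -0.10 with HFD (interval -0.22 to 0.03), the latter past the threshold with the trend removed (-0.36, edgeR adjusted p = 6.7e-06). Its call for EC359 against LFD (0.39) was lost with the trend removed (0.08). Elovl1, which makes very long saturated chains, was at 36.5 ± 3.13, 41.7 ± 1.49 and 44.9 ± 0.657 CPM. Its log2 fold change with HFD was 0.19 (edgeR adjusted p = 0.0595), which passed with the trend removed (0.31), with library totals in place of TMM factors and counts thinned to the smallest library (0.23 in each), and without LFD 2 (0.25), and with EC359 against LFD it was 0.30 (edgeR adjusted p = 0.00236).

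Scd1 changed more with HFD than any other of the 31 genes. Scd1 (chromosome 19, 44468940 to 44482199, minus strand) makes oleate and palmitoleate from saturated chains. It was at 159, 170.4 and 176 CPM in the LFD libraries, 64.6, 70.5 and 67.9 in the HFD libraries and 93.0, 94.6 and 101 with EC359. The 3 groups did not overlap, and the EC359 libraries lay between the other 2. Scd1 was 2.49-fold higher in the LFD group than in the HFD group (log2 fold change -1.32, standard error 0.0540, edgeR adjusted p = 1.28e-19). With EC359 it was 1.42-fold higher than with HFD (log2 fold change 0.51, standard error 0.0549, edgeR adjusted p = 7.32e-09) and still lower than with LFD (-0.81, edgeR adjusted p = 4.56e-15). The 3 calls held under every alternative tried, with -1.46 and 0.49 after removal of the trend.

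Scd2 (chromosome 19, 44368166 to 44381352, plus strand), the neighboring desaturase gene, is the more abundant of the pair in these tumors, at 153 ± 4.07 RPKM beside 34.8 ± 1.74 RPKM for Scd1 in the LFD group. It was at 858, 824 and 817 CPM in the LFD libraries, 735, 786 and 722 in the HFD libraries and 721, 671 and 734 with EC359. The HFD libraries lay below those of the LFD group and overlapped those with EC359. Scd2 fell with HFD by 0.16 on the log2 scale (edgeR adjusted p = 0.000658), and its log2 fold change with EC359 against HFD was -0.08 (edgeR adjusted p = 0.121), past the threshold with a fit to just the 6 libraries compared (-0.08), and without LFD 1 (-0.08). Against LFD, Scd2 was lower with EC359 (-0.23, edgeR adjusted p = 2.02e-06). It overlaps 1 other gene on its strand, and read pairs over both were split. Of the summed RPKM of Scd1 to Scd4, Scd1 held 18.3 ± 1.11% with LFD, 9.01 ± 0.299% with HFD and 12.9 ± 0.522% with EC359, with no overlap between groups, a share computed after the values were seen and given with no test.

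Fads1 and Fads2, the polyunsaturated fatty acid desaturases, were higher with HFD. Fads1 was at 82.8, 89.7 and 88.2 CPM in the LFD libraries, 112, 115 and 124 in the HFD libraries and 118, 111 and 114 with EC359. All 6 libraries of mice on the HFD lay above the LFD group. Its change on the log2 scale was 0.43 with HFD (standard error 0.0547, edgeR adjusted p = 8.4e-08) under every alternative tried and -0.04 with EC359 against HFD (interval -0.13 to 0.06), and against LFD it was higher with EC359 by 0.39 (edgeR adjusted p = 2.11e-07). The RPKM of Fads1 was 0.722 ± 0.0176 times that of Scd1 with LFD, 2.42 ± 0.139 times with HFD and 1.66 ± 0.0997 times with EC359 (mean ± SD of the ratio, n = 3), also computed after the values were seen. Fads2, which acts before Fads1 on the same chains, was at 37.4, 34.3 and 32.7 CPM in the LFD libraries, 37.4, 38.1 and 47.2 in the HFD libraries and 31.9, 37.8 and 30.8 with EC359. HFD replicate 3 was the highest of the 9 libraries. Its increase with HFD (0.23, edgeR adjusted p = 0.0497) was lost with RLE factors, DESeq2, a minimum mean count of 10, a fit to just the 6 libraries compared and counts thinned to the smallest library (0.23 to 0.25), and without any one of LFD 2, LFD 3, HFD 3, HFD + EC359 1 or HFD + EC359 3 (0.12 to 0.23), and was 0.42 with the trend removed (edgeR adjusted p = 0.000567). Its decrease with EC359 against HFD (-0.29, edgeR adjusted p = 0.0192) was lost without any one of HFD 3, HFD + EC359 1 or HFD + EC359 3 (-0.18 to -0.26).

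Lpin1, a phosphatidate phosphatase that turns fatty acids toward triglycerides and a known SREBP target, was lowest with HFD. It was at 52.5, 54.4 and 54.6 CPM in the LFD libraries, 43.7, 44.9 and 45.5 in the HFD libraries and 61.3, 59.2 and 58.5 with EC359. The 3 groups did not overlap. Its log2 fold change was -0.27 with HFD (edgeR adjusted p = 0.00184) and 0.42 with EC359 against HFD (standard error 0.0653, edgeR adjusted p = 7.93e-06), both under every alternative tried, and 0.15 with EC359 against LFD (interval 0.01 to 0.28, edgeR adjusted p = 0.0611), the last past the threshold with library totals in place of TMM factors (0.22).

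**Figure D3:**
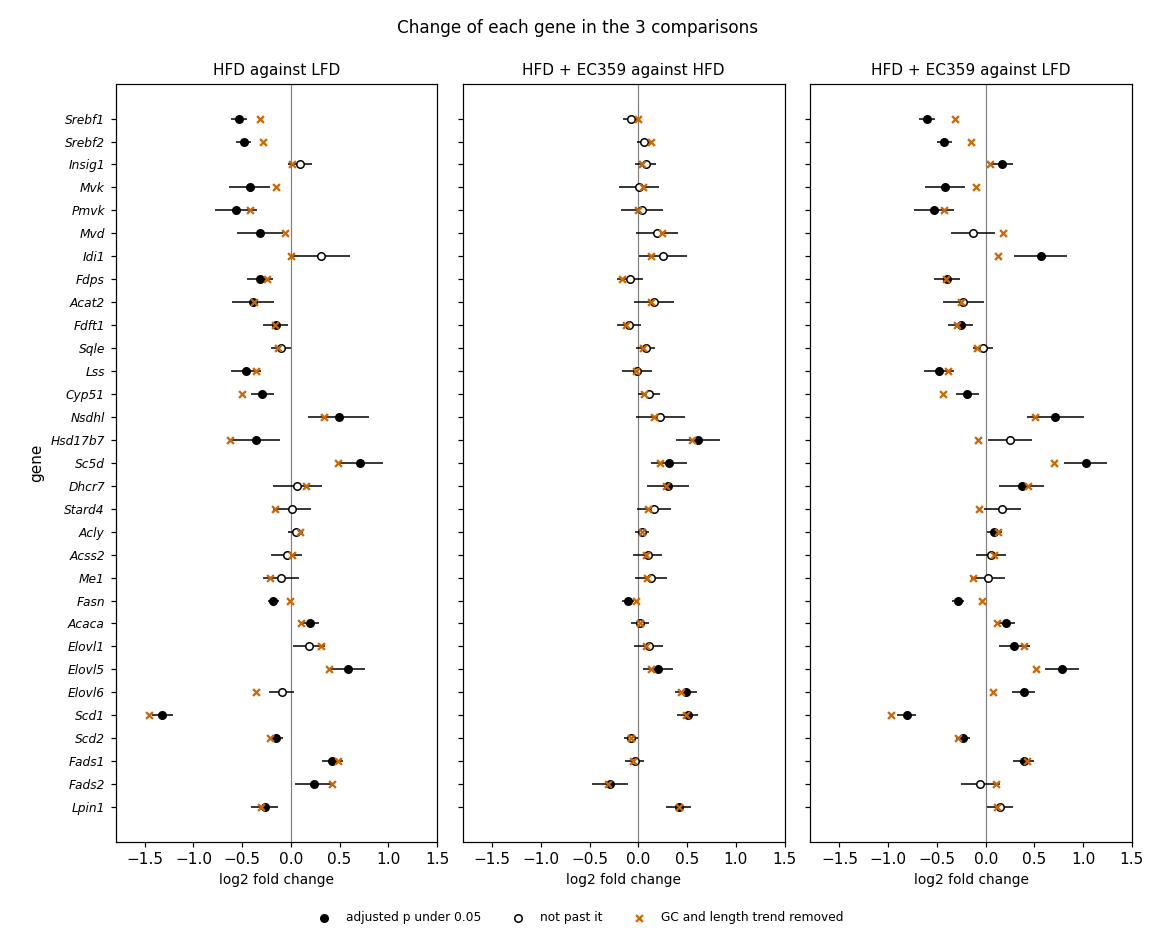
Log2 fold change of the 31 tested genes in each comparison (points) with the 95% interval from its standard error (lines); filled points passed an adjusted p under 0.05 and orange crosses give the value with each library's GC and length trend removed. Scd1 lies farthest left for HFD against LFD (-1.32), Hsd17b7 farthest right for HFD + EC359 against HFD (0.61) and Sc5d farthest right for HFD + EC359 against LFD (1.03), and for HFD against LFD the crosses of Mvk, Mvd and Fasn lie closer to 0 than their points.

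The genes with the highest levels per length were the same in the 3 groups, while the order of others changed. Scd1 lay above Fads1 with LFD (34.8 ± 1.74 beside 25.1 ± 1.05 RPKM) and below it with HFD (14.0 ± 0.612 beside 33.9 ± 1.81 RPKM). Scd2 was highest (153 ± 4.07, 137 ± 6.19 and 130.0 ± 6.10 RPKM in the LFD, HFD and HFD + EC359 groups), followed by Fasn (111 ± 2.29, 98.4 ± 0.315 and 91.4 ± 1.25). Acly (61.1 ± 1.70, 63.2 ± 0.548 and 65.0 ± 1.13) and Srebf2 (75.4 ± 3.50, 53.8 ± 0.695 and 56.1 ± 1.61) came next, in an order that differed between the LFD group and the other 2. Among the cholesterol enzymes, Fdps was highest (53.8 ± 1.65 RPKM in the LFD group), and Nsdhl (3.81 ± 0.592), Hsd17b7 (4.04 ± 0.4999) and Idi1 (3.71 ± 0.744) were lowest and differed by less than their SDs. GC content went along with the direction of the calls. It had a median of 47.5% in the 6 genes higher and 52.2% in the 15 lower with HFD, and of 44.8% in the 7 higher and 57.0% in the 2 lower with EC359 against HFD. The GC trend of the libraries and the groups run together, so their parts in single calls cannot be told apart. The values with the trend removed do not settle it, because removal also takes out any difference between groups that goes along with GC content or length.

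Genes of the same pathways outside the 32 were read from the same fit. The counts of these lists, and of the cell type markers below, stand beside the shares over all genes tested. Those shares were 26% higher and 25.8% lower with HFD, and 12.7% higher and 13.9% lower with EC359 against HFD. Of 7 tested other cholesterol synthesis enzymes, 1 was higher and 3 lower with HFD, and 1 was higher with EC359 against HFD. Ggps1, which makes geranylgeranyl diphosphate, rose by 0.85, and Ebp, a sterol isomerase, fell by 0.36 (log2 fold changes with HFD). With EC359 against HFD, Sc4mol, the sterol methyl oxidase, rose by 0.26, a call lost with the trend removed (0.14). Against LFD, the EC359 group differed by 0.99 in Ggps1 and -0.31 in Ebp. With the trend removed, Ggps1 was at 0.53 with HFD and 0.55 for EC359 against LFD. Of 8 tested other regulators, 2 were higher and 3 lower with HFD and none of 8 passed with EC359 against HFD. Mbtps2, a protease that cuts SREBPs, rose by 0.40, Mid1ip1 fell by 0.37 and Scap fell by 0.27, and none of these 3 passed with the trend removed (-0.0013, -0.16 and -0.04). Against LFD, EC359 libraries differed by 0.47 in Mbtps2, -0.26 in Scap and 0.14 in Mlxip, and with the trend removed by -0.05, 0.06 and 0.19.

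Among 10 genes of cholesterol export, esterification and LXR activity, 4 were higher and 2 lower with HFD, and 1 was higher and 1 lower with EC359 against HFD. Soat1, which stores cholesterol as esters, rose by 0.44 with HFD (edgeR adjusted p = 1.47e-08), Stard3 fell by 0.42 and Nceh1 rose by 0.36, the last not past the threshold with the trend removed (0.13). With EC359 against HFD, Apoe, a carrier of exported cholesterol, rose by 0.32 (edgeR adjusted p = 9.49e-09) and the exporter Abca1 fell by 0.15. Against LFD, Nceh1, Soat1 and Apoe were higher with EC359 by 0.58, 0.51 and 0.47. These values were 0.29, 0.24 and 0.81 with the trend removed, and with HFD those of Soat1 and Stard3 were 0.21 and -0.20. Among 11 tested genes of glycerolipid synthesis, 1 was higher and 5 lower with HFD. The acyltransferases of the last triglyceride step, Dgat2 and Dgat1, fell by 0.76 and 0.42, and Agpat2 fell by 0.42. The changes of Dgat1 and Agpat2 were -0.26 and -0.25 with the trend removed. With EC359 against HFD, 2 were lower, Dgat1 (-0.30) and Agpat6 (-0.13), and against LFD Dgat1, Agpat6 and Dgat2 were lower (-0.72, -0.45 and -0.42), Dgat2 not past the threshold with the trend removed (-0.21).

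Among the other fatty acid genes, the largest log2 fold changes were those of elongases. Of 17 tested other fatty acid genes, 3 were higher and 6 lower with HFD, and 4 were higher and 1 lower with EC359 against HFD. Elovl4, which makes very long chains in skin and retina, was at 36.4, 39.7 and 42.3 CPM in the LFD libraries, 5.04, 6.67 and 5.45 in the HFD libraries and 22.7, 18.0 and 19.1 with EC359 (-2.79 with HFD and 1.79 with EC359 against HFD, edgeR adjusted p = 5.48e-18 and 3.23e-12). Elovl7 was at 13.0 ± 0.971, 7.35 ± 0.910 and 15.1 ± 0.198 CPM (-0.83 and 1.04, edgeR adjusted p = 1.98e-05 and 2.46e-07). Elovl3 had 96 counts over the LFD libraries and 6 over the HFD libraries, 1 to 3 in each, a ratio of 21.6 with a 95% counting interval of 9.59 to 60.4, and was at 0.820 ± 0.209 CPM with EC359. Idh1, a source of NADPH, rose by 0.37 with EC359 against HFD (edgeR adjusted p = 6.49e-07). Against LFD the changes with EC359 that were largest in size were those of Elovl3, Elovl4 and Scd3 (-2.78, -0.99 and 0.60).

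The order of Scd1, high with LFD, low with HFD and between them with EC359, was also seen in some markers of epithelium. The adipocyte marker Plin4 showed it as well (below). Cdh1 was at 28.4 ± 0.900, 5.90 ± 0.311 and 19.9 ± 0.541 CPM and Epcam at 7.39 ± 0.466, 1.37 ± 0.514 and 5.05 ± 0.702 CPM. Over the 6 epithelial markers the summed level was 1113 to 1135 CPM in the LFD libraries, 704.5 to 713.8 in the HFD libraries and 762.5 to 790.6 with EC359, most of it Krt8 and Krt18, while Krt19 and Krt7 averaged 0.385 to 1.07 CPM. All 4 tested epithelial markers were lower with HFD, and 3 of 4 were higher with EC359 against HFD. The sebaceous gland markers share Elovl3 and Scd3 with the other fatty acid genes above, so the 2 lists are not separate. Of these markers, 3 of 4 tested were lower with HFD, Elovl3 among them, and 2 were higher with EC359 against HFD, Far2 and Awat1. The summed level of the list was 17.6 to 21.6, 9.67 to 10.7 and 13.6 to 15.7 CPM, with Mogat2 and Dgat2l6 under 1 CPM in every library. The highest gene of the list, Scd3, did not show the order of Scd1. Its means went up over the groups, at 6.17 ± 1.18, 7.89 ± 0.318 and 9.51 ± 1.26 CPM. Epidermal markers, led by Krt1 with LFD and with EC359 and by Krt10 with HFD, summed to 142.4 to 154.2, 108 to 115 and 129 to 134 CPM. Of 5 tested, 2 were lower and 1 higher with HFD, and 3 were higher with EC359 against HFD. The genes set beside Scd1 were picked after their values were seen, and the part of these cells in the level of Scd1 was not tested.

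**Figure D4:**
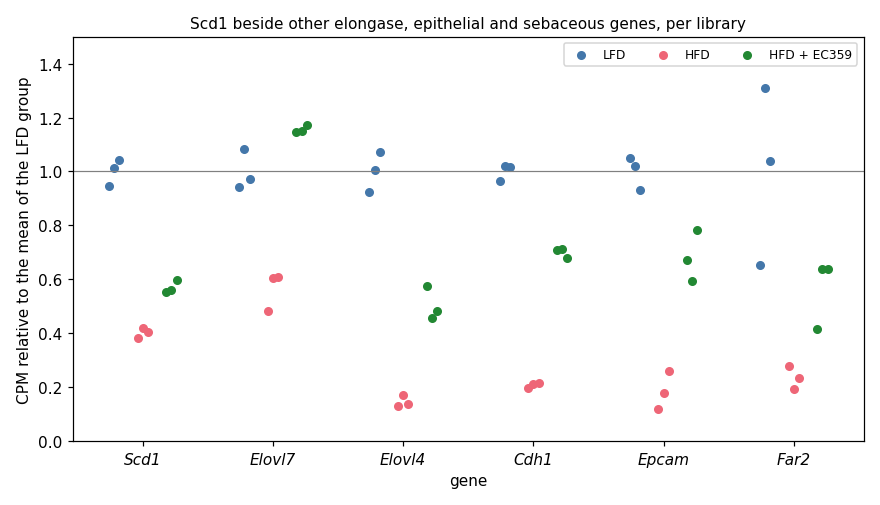
CPM of Scd1, the elongases Elovl7 and Elovl4, the epithelial markers Cdh1 and Epcam, and Far2 in each library, divided by the mean of the LFD group (grey line at 1), colored by group. In each of the 6 genes the HFD libraries (red) are the lowest and the HFD + EC359 libraries (green) lie above them, and for Elovl7 they lie above the LFD libraries as well.

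The defining markers of adipocytes, which have lipid enzymes of their own, were low. Of 11 markers, 5 (Adipoq, Lep, Retn, Pck1 and Adrb3) were under 1 CPM in every library, and the list summed to 43.5 to 48.1 CPM in the LFD libraries, 58.0 to 59.8 in the HFD libraries and 63.5 to 67.7 with EC359. Its highest gene was Lipe, and Fabp4, which macrophages and endothelium also express, rose by 1.66 with HFD. In all, 2 of 6 tested were higher and 1 lower with HFD, and 1 was higher with EC359 against HFD. The lower gene was Plin4, named after its values were seen, which had the order of Scd1. It was at 10.9 ± 0.391, 4.80 ± 0.235 and 7.64 ± 0.627 CPM in the LFD, HFD and HFD + EC359 groups. Milk and liver genes summed to at most 0.817 and 1.09 CPM, with Lalba and Alb the highest. Macrophage markers, led by Mrc1 in the LFD group and by Lyz2 in the others, summed to 1469 to 1540, 1590.2 to 1634 and 2007 to 2029 CPM in the 3 groups. Of 6 markers, 4 were higher and 2 lower (Mrc1 and Cd163) with HFD, and 5 were higher with EC359 against HFD. Fibroblast markers, led by Col1a1, summed to 5705.5 to 6769, 9985 to 10617 and 2878 to 2949 CPM, with all 5 higher with HFD and 3 lower and 1 higher with EC359 against HFD. Endothelial markers, led by Pecam1 and Cdh5, summed to 191 to 200, 340.3 to 367 and 285 to 299 CPM, with all 4 higher with HFD and 3 lower with EC359 against HFD. T cell markers (Cd4 the highest) summed to 9.81 to 13.6, 8.11 to 9.32 and 12.7 to 14.9 CPM, with 1 of 3 lower with HFD and 1 higher with EC359. Muscle genes (Acta1 and Myh4 the highest) summed to 87.5 to 93.1, 108 to 119 and 61.4 to 67.2 CPM, with 3 of 4 higher with HFD and 3 lower with EC359. Proliferation genes, led by Top2a, summed to 889 to 985, 1177 to 1189 and 1034 to 1071 CPM, with 4 of 5 higher with HFD and 3 lower with EC359. Of the genes for receptors that triple-negative tumors lack, Pgr was at or under 0.745 CPM on average and Esr1 at 6.80 to 12.6, while Erbb2 was at 74.8 to 107 CPM on average. Such RNA, from tumor and host cells together, does not measure receptor protein. These lists moved with the groups together with the lipid genes, and their part in the lipid genes' values was not tested.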

How the data were processed

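RNA of 9 4T1 tumors, as the description of the series counts them, was sequenced as stranded mRNA libraries, in paired ends. The expected counts of read pairs per gene were deposited by the authors. Per the file headers they were made with featureCounts 1.5.0-p1 (reversely stranded, pairs over several genes or places split as fractions, minimum mapping quality 2) on mm9. The submitters' processing notes name HISAT2 2.1.0 and bcl2fastq, while the study's methods name TopHat2 and HTSeq, and which aligner made these files was not settled here. Splitting pairs affects overlapping genes and near copies, of which Scd2 overlaps 1 gene on its strand.

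Counts were rounded to whole numbers and genes of low counts removed with filterByExpr, leaving 13366 genes. All 9 libraries were fitted together by group with TMM factors in edgeR 4.0.16 (R 4.3.3, glmQLFit and glmQLFTest), as the labels give no batch, and p-values were adjusted by Benjamini-Hochberg over all genes tested. Intervals are 95%, from the standard error of the fit. The stricter threshold was a fold change over 2 with an adjusted p under 0.01, after the study's methods. CPM and RPKM used TMM-scaled totals and the gene lengths of the files. GC content was read from mm9 sequence for 22549 genes, and trends with GC content and length were removed per library, as offsets from natural splines. Alternatives were RLE factors, library totals alone, DESeq2 1.42.0, no filter, a minimum mean count of 10, the 6 libraries of a comparison alone, a replicate block, the trend removed with and without the block, counts thinned to the smallest library, and each library left out. The script was tested on simulated data.

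All 32 genes are named, with every library's value for the 12 highest in mean CPM, for those past the stricter threshold and for Srebf1, Srebf2 and Insig1, and further genes where a result turned on them. Of each other pathway list, at most 3 genes with the largest changes past the threshold per comparison are named, and of each marker list those near 0 and the highest, besides genes said to be chosen after their values were seen. A gene that this rule would name is not reported here. The members and lists were chosen with earlier results of these data known. Promoters were taken from RefSeq (GRCm38.p6), and mm9 coordinates are those of the files.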

Additional observations from a re-analysis of the deposited data

How the results depend on the processing

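The 3 counts of genes past an adjusted p under 0.05 ran from 18 to 21 for HFD against LFD (21 as reported), from 5 to 10 for HFD + EC359 against HFD (9) and from 18 to 24 for HFD + EC359 against LFD (22) over 19 alternatives, 9 of which left out one library each. Leaving out one library gave 5 to 10 for HFD + EC359 against HFD, with 5 without HFD + EC359 replicate 1. The single gene past the stricter rule for HFD + EC359 against LFD, Sc5d, was lost with the GC and length trend removed, with and without the block (0 genes), and the count was 0 to 1 on leaving out one library, with 0 without LFD replicate 1 or LFD replicate 3. Replicate numbers are shared by the groups but did not pair the libraries. The deviations of same-numbered libraries correlated at -0.030 to 0.017 (9 pairs) and those of other pairs at -0.023 to 0.027 (18 pairs). With the replicate block, 20, 8 and 21 genes passed in the 3 comparisons, and 20, 6 and 18 with the block and the trend removed. In 14 cases a gene's log2 fold change turned sign under some alternative, and the cause was not tested. For HFD against LFD, with the trend removed and then with the block added, Idi1 (0.31 as reported) was at -0.00255 and -0.00186, Stard4 (0.010) at -0.165 and -0.162, and Acss2 (-0.044) at 0.0157 and 0.0151. Stard4 was at -0.0311 with thinned counts and at -0.0465 to 0.0616 on leaving out one library. For HFD + EC359 against HFD, Mvk (0.0054) was at -4.05e-05 with DESeq2, at -0.0831 with thinned counts and at -0.0962 to 0.0896 on leaving out one library. Pmvk (0.038) was at -0.00405 with the trend removed and at -0.0553 to 0.0995, Lss (-0.015) at 0.0173 with library totals, 0.022 with thinned counts and -0.103 to 0.0506, Acaca (0.017) at -0.0136 to 0.0331 and Fads1 (-0.037) at -0.0676 to 0.00246 on leaving out one library. For HFD + EC359 against LFD, with the trend removed and then with the block added, Mvd (-0.13) was at 0.18 and 0.179, Hsd17b7 (0.25) at -0.0765 and -0.0729, Stard4 (0.17) at -0.0699 and -0.0737, Fads2 (-0.055) at 0.104 and 0.105, and Me1 (0.026) at -0.132 and -0.134. With library totals, Sqle (-0.027) was at 0.0476 and Fads2 at 0.0193, and Me1 was at -0.0224 with thinned counts and at -0.0742 to 0.089 on leaving out one library. None of these 14 values had passed the threshold as reported. Depth limits genes of few counts, such as Nsdhl (34 to 139 counts per library) and Idi1 (40 to 174), and with 3 libraries a group the smallest two-sided exact permutation p of a single value is 0.1.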
